A study of Mus musculus with 4 samples.

Results

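The chromatin of 10 genes of the Wnt pathway was followed by its accessibility in mouse mesenchymal stem cells (MSCs). They were the ligand genes Wnt1, Wnt5a and Wnt10b, the co-receptor gene Lrp5, the signal transducer gene Ctnnb1, the nuclear factor genes Lef1 and Tcf7l2, the target gene Axin2, and the secreted inhibitor genes Sfrp1 and Dkk1. A peak belonged to a gene when it overlapped, by at least 1 bp, the span from 10 kb upstream of the gene to 10 kb past its end in the GENCODE M21 annotation of mm10. This gave 92 pairs of gene and peak and 90 distinct peaks of 128055 in all, because 2 peaks lay in the spans of both Wnt1 and Wnt10b. The MSCs came from the hind limb bones of wild-type male C57BL/6N mice aged 3 to 5 months. They were sorted as CD45-/TER-119-/CD140a+/Sca-1+ cells, and all cells had been grown in hypoxia (2% O2) up to the sort. One set was then kept in hypoxia and the other was shifted to normoxia (21% O2) for a week, with 2 libraries from each condition. The assay was ATAC-seq, where Tn5 transposase tags open DNA with adapters for sequencing.

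Wnt ligands are secreted proteins that bind Frizzled receptors together with the co-receptors Lrp5 or Lrp6. Binding of the ligand protects beta-catenin, the product of Ctnnb1, from degradation, and beta-catenin then enters the nucleus and joins TCF/LEF factors at target genes, of which Axin2 is a feedback inhibitor. Wnt signalling through Lrp5 is known for promoting bone formation from mesenchymal progenitors, Sfrp1 binds Wnt ligands outside the cell, and Dkk1 blocks the Lrp5 and Lrp6 co-receptors.

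The library totals ranged from 26680936 to 29965523 reads, and a Wnt peak held a median of 46 reads per library, with 0 reads as the lowest value. The labelled cell type was checked at promoters, where a peak lay at the start of 8 of 8 MSC marker genes, whereas Ptprc, Itgam and Cd3e among the blood markers and Cdh5 and Sox17 of 4 endothelial markers had no promoter peak. The summed promoter values of the blood markers were 60.2 and 58.1 in hypoxia against 34.5 and 50.1 in normoxia, those of the endothelial markers were in the same order 61.2, 60.5, 35.6 and 45.1, and those of the MSC markers were 1195, 1214, 672 and 739. The part of such cells in the values below was not tested. The share of all library reads that fell in peaks on nuclear chromosomes was 49.2% and 53.2% in hypoxia but 31.0% and 35.2% in normoxia, and including mitochondrial peaks it ranged from 32.5% in normoxia replicate 1 to 62.3% in hypoxia replicate 2. The values deposited are reads scaled to a library total of 10000000, so this gap enters every peak. The main test therefore used relative log expression (RLE) size factors of 1.13 and 1.23 in hypoxia against 0.81 and 0.886 in normoxia. In these bulk libraries, fewer cells with an open site and less opening per cell cannot be told apart.

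Regions of 5 of the genes are shown first, as examples of called and uncalled sites, of which the Wnt10b promoter and the region past Sfrp1 lay in called peaks. The promoters of Wnt10b and Wnt1 are divergent neighbours on chromosome 15 whose starts lie 11707 bp apart, Axin2 and Dkk1 are a feedback target and an inhibitor, and the last region lay in a peak past the end of Sfrp1. The promoter lines hold the 250 bases before the transcription start in RefSeq (build GRCm38.p6), and 7 of the 10 genes matched that table. Capitals mark the hypoxia response core (ACGTG, or the same with G as its opening base, on either strand) in Wnt10b and Wnt1 and TCF/LEF letters (CTTTG followed by AA, AT, TA or TT, on either strand) in Dkk1.
Wnt10b promoter, chr15:98778151-98778400, minus strand: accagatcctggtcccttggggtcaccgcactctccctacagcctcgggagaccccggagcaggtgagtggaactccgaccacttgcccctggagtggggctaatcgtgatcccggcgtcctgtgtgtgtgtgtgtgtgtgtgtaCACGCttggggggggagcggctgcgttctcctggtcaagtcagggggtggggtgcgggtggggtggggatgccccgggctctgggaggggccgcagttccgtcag
Wnt1 promoter, chr15:98789607-98789856, plus strand: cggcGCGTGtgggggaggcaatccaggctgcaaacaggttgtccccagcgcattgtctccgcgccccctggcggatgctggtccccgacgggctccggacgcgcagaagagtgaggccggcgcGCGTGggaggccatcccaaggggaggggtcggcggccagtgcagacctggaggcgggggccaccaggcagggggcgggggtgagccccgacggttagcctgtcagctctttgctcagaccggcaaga
Axin2 promoter, chr11:108920099-108920348, plus strand: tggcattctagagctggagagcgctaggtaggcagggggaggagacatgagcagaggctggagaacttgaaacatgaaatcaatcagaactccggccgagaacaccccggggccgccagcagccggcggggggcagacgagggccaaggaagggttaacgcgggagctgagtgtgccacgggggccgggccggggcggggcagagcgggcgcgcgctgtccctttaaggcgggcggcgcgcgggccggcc
Dkk1 promoter, chr19:30549497-30549746, minus strand: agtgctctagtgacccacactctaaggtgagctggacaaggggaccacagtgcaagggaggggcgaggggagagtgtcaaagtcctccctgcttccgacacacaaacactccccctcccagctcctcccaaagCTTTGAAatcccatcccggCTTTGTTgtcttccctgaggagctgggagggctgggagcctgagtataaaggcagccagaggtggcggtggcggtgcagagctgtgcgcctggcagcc
Centre of the peak past Sfrp1, chr8:23455951-23456250, plus strand: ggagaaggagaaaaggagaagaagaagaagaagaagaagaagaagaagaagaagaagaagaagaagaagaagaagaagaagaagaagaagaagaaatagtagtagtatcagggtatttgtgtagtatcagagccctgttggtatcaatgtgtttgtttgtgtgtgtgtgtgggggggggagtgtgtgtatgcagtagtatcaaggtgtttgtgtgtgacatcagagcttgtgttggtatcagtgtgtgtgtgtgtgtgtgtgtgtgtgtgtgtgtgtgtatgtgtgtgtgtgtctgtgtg

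The Wnt10b window held the hypoxia core 1 time and the Wnt1 window 2 times, and the Axin2 window held neither motif. Among the 12 windows of the 7 matched genes 6 held the hypoxia core, and 38.6% of all 32851 RefSeq promoter windows of this length did. TCF/LEF letters stood in 3 of the 12 windows, with 2 matches in Dkk1, and in 14.8% of all windows. The windows are not all distinct sites, since those of Ctnnb1 overlap and count the same core again. Of the 12 windows 9 lay wholly inside a peak of their gene, and those with TCF/LEF letters were not among them. The Wnt10b, Wnt1 and Axin2 windows lay inside the promoter peak of their gene, whereas the Dkk1 window reached past the edge of a peak of 500 bp. These matches are a description of letters and say nothing of binding. The region past Sfrp1 held neither motif and consisted largely of runs of short repeats. Of its 300 bases 80.7% were marked as repeats in the genome sequence. The median was 8.67% at the centres of all 120159 peaks at least 300 bp wide. The centre of the other called peak at Sfrp1 (chr8:23446801-23455700) is not printed. It held the hypoxia core 2 times and no TCF/LEF letters, with 8.33% of its 300 bases marked as repeats. The hypoxia core stood in 29.2% of all those peak centres.

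Across the whole group, few Wnt peaks changed after scaling. At a false discovery rate (FDR) under 0.01 in limma, 3 of 90 peaks fell in normoxia (3.33%), where 4.57% of all peaks did. None of the 90 was called higher, where 1.77% of all peaks were. At an unadjusted p under 0.05 in limma, 10 of the 90 were higher and 17 lower, against 16023 higher and 21576 lower of all 128055 peaks. The median log2 fold change, which throughout sets normoxia over hypoxia and adds 1 to each value before the log, was -0.046 for the Wnt peaks and -0.004 for all peaks. The share of Wnt peaks that fell was thus near that of the whole table. The calls needed both hypoxia libraries. The Wnt median was -0.053 without hypoxia replicate 1, -0.091 without hypoxia replicate 2, -0.125 without normoxia replicate 1 and 0.043 without normoxia replicate 2. The medians of all peaks were -0.019, -0.016, -0.002 and 0.0007 in the same order.

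The scale decided how many peaks were called. On the values as deposited, the normoxia values were both under the hypoxia values in 58 of 90 Wnt peaks (59.5% of all peaks) and both over them in 4 (6.94% of all peaks). On that scale 24 Wnt peaks were called lower (26.7%, against 24.0% of all peaks) and 0 higher (0.391% of all peaks), with medians of -0.49 for Wnt peaks and -0.44 for all. With equal totals over all peaks, which moved the median of all peaks to 0.26, 1 was called lower (0.842% of all peaks) and 5 higher (6.87%). After cyclic loess, which removes any trend of the fold change with strength, 1 was called lower (1.31% of all peaks) and 2 higher (1.42%). On each of these scales the counts of Wnt peaks stayed close to their background.

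Promoter peaks and the remaining peaks differed in their median. In all, 12 peaks lay within 1 kb of a protein-coding start of the gene, at least 1 for each gene, and their median log2 fold change was -0.26, with 1 called lower. All 17661 promoter peaks had a median of -0.27, with 16.7% called lower and 0.442% higher. The 75 Wnt peaks at no promoter had a median of -0.009 with 2 called lower (2.67%), close to the 2.64% of all peaks at no promoter, which had a median of 0.05 and 1.98% called higher, and 3 further peaks lay at the starts of the neighbouring genes Arf3, Ddn and Ppp6r3. On the deposited scale 11 of the 12 promoter peaks were lower in both normoxia libraries than in either hypoxia library, where 86.1% of all promoter peaks were, and the exception was an internal start of Tcf7l2.

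**Figure D1:**
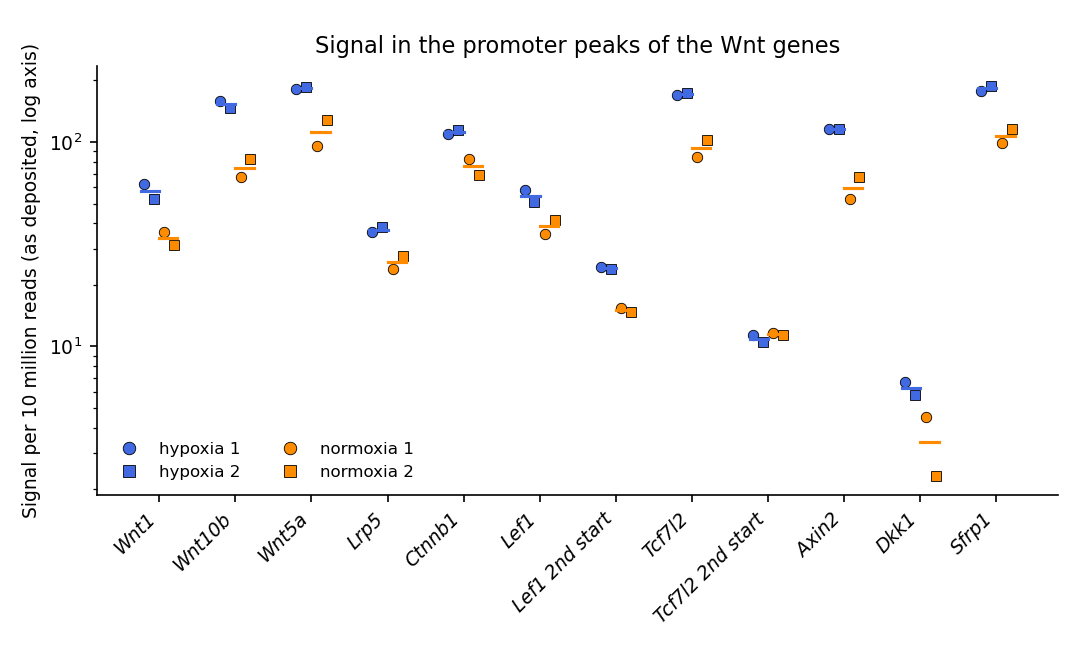
Values of the 12 promoter peaks of the Wnt genes, as deposited (reads scaled to a library total of 10000000) on a log axis. Each point is a library, with circles for replicate 1 and squares for replicate 2, and each line is the mean of 2 libraries. The normoxia points lie below the hypoxia points in 11 of 12 peaks (86.1% of all promoter peaks), before the scaling that sets the median of all peaks near 0.

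Among the ligands, the promoter of Wnt10b fell. Wnt10b is a ligand known for favouring osteoblast over fat cell differentiation. Its promoter peak (chr15:98776201-98781500) held values of 159 and 147 in hypoxia against 67.1 and 82.8 in normoxia. The groups did not overlap, and the log2 fold change was -0.55 (SE 0.13, FDR 0.00388). Over 14 alternatives this peak was called in 8, with FDRs from 3.77e-06 to 0.221. After cyclic loess its fold change was -0.29 (FDR 0.140).

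Wnt1 encodes the founding ligand of the family. Its own promoter peak (chr15:98787901-98791800) held 62.3 and 52.7 in hypoxia against 36.4 and 31.4 in normoxia. These values did not overlap, yet the log2 fold change was -0.28 (SE 0.17, FDR 0.293) after scaling and 0.007 with equal totals. Per kb of peak the Wnt10b promoter was the more open, with means of 28.9 in hypoxia and 14.1 in normoxia against 14.7 and 8.68 at Wnt1. Since both spans hold both promoters, the promoter peak of Wnt10b was also the peak of the Wnt1 span with the lowest p. A peak at the start of Arf3 downstream of Wnt10b held 112 and 104 in hypoxia against 55.1 and 63.7 in normoxia, with a fold change of -0.38 (FDR 0.0534).

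Wnt5a encodes a ligand known mainly for beta-catenin-independent signalling. Its promoter peak (chr14:28503801-28512000) held 181 and 186 in hypoxia against 95.2 and 129 in normoxia, and the log2 fold change was -0.25 (SE 0.12, FDR 0.170). It was 0.07 after cyclic loess and 0.04 with equal totals, so its direction depended on the scale. A second strong peak, downstream of the gene (chr14:28532301-28534100), held in the same order 102, 111, 64.8 and 72.8, with a fold change of -0.15 (FDR 0.492). The 12 ligand peaks had a median log2 fold change of -0.20, with 9 below 0, 1 called lower and 0 higher.

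Lrp5, the co-receptor, had 10 peaks, most of them in its introns. Its promoter peak (chr19:3684801-3686900) held 36.1 and 38.4 in hypoxia against 24.0 and 27.7 in normoxia, a fold change of -0.05 (SE 0.18, FDR 0.890) that became 0.23 with equal totals. The lowest p of the span belonged to a peak at the start of the neighbouring Ppp6r3 (chr19:3574301-3577100), with 236 and 239 in hypoxia, 118 and 150 in normoxia and a fold change of -0.36 (SE 0.11, FDR 0.0289). An intronic peak, chosen after its values were seen (chr19:3665201-3669800), held nearly level deposited values of 71.8 and 67.7 in hypoxia against 74.6 and 63.7 in normoxia. Its fold change was 0.46 after RLE scaling (SE 0.15, FDR 0.0342) and 0.65 after cyclic loess (FDR 0.00447), where it was called higher. The median over the 10 Lrp5 peaks was 0.27, with 3 below 0.

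Ctnnb1, which encodes beta-catenin, had 7 peaks and a median of 0.42, and none was called. Its promoter peak (chr9:120933001-120937100) covered an alternative start and held 110 and 115 in hypoxia against 82.8 and 69.1 in normoxia. The groups did not overlap as deposited, and the fold change was -0.09 (SE 0.14, FDR 0.712), 0.20 with equal totals and 0.15 after cyclic loess. The lowest p of the span was that of an intronic peak (chr9:120947701-120948700), with 13.4 and 5.78 in hypoxia, 15.4 and 10.0 in normoxia and a fold change of 0.87 (SE 0.32, FDR 0.0640). Its groups overlapped on the deposited scale.

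Lef1 and Tcf7l2 encode the DNA-binding partners of beta-catenin. The Lef1 promoter peak (chr3:131105901-131111500) held 58.4 and 50.7 in hypoxia against 35.6 and 41.7 in normoxia, a fold change of -0.02 (SE 0.16, FDR 0.960), and its sign turned under equal totals, cyclic loess and edgeR with TMM factors. A second promoter peak just inside the gene (chr3:131111601-131112800) held in the same order 24.4, 23.8, 15.4 and 14.7, a fold change of -0.19 (SE 0.22, FDR 0.607) that was 0.08 with equal totals. Between them lay a peak of 100 bp assigned to hypoxia only (chr3:131111501-131111600), with 1.77 and 1.70 in hypoxia and 0 in both normoxia libraries, which had the lowest p of the span but an FDR of 0.0972.

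Tcf7l2 is a gene of 191835 bp and held 31 of the 90 peaks, most of them in introns. The promoter peak (chr19:55740301-55745900) held 169 and 173 in hypoxia against 84.7 and 103 in normoxia, with a fold change of -0.39 (SE 0.12, FDR 0.0259), short of the threshold. A peak at an internal start (chr19:55895201-55896300) held 11.3 and 10.5 in hypoxia against 11.6 and 11.3 in normoxia, a fold change of 0.51 (SE 0.27, FDR 0.216). The gene thus held both directions, with 16 of its peaks below 0 and 15 at or above 0, a median of -0.01, 4 lower and 5 higher at an unadjusted p under 0.05, and none called.

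Among the intronic peaks of Tcf7l2 none passed the threshold after RLE scaling. The lowest p was that of a hypoxia-only peak of 100 bp beside a broad intronic peak (chr19:55750701-55750800), with 3.89 and 4.76 in hypoxia (11 and 14 reads) and 0 and 0.667 in normoxia (0 and 2 reads). Its fitted fold change, which depends on the added 1, was -1.81 (SE 0.50, FDR 0.0125). Assigned to hypoxia only from the same libraries, this peak is not independent support for a fall. It was called in 3 of 13 alternatives, and 51.0% of its bases were marked as repeats. The intronic peak with the highest values per kb, chosen after its values were seen (chr19:55872901-55877400), held 222 and 227 in hypoxia against 124 and 119 in normoxia, with a fold change of -0.40 (SE 0.11, FDR 0.0165). Another intronic peak, likewise chosen afterwards (chr19:55825301-55832300), held 80.7 and 86.4 in hypoxia against 68.2 and 89.8 in normoxia. Its groups overlapped as deposited, and its fold change was 0.38 after RLE scaling (FDR 0.0570) and 0.60 after cyclic loess (FDR 0.00328).

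**Figure D2:**
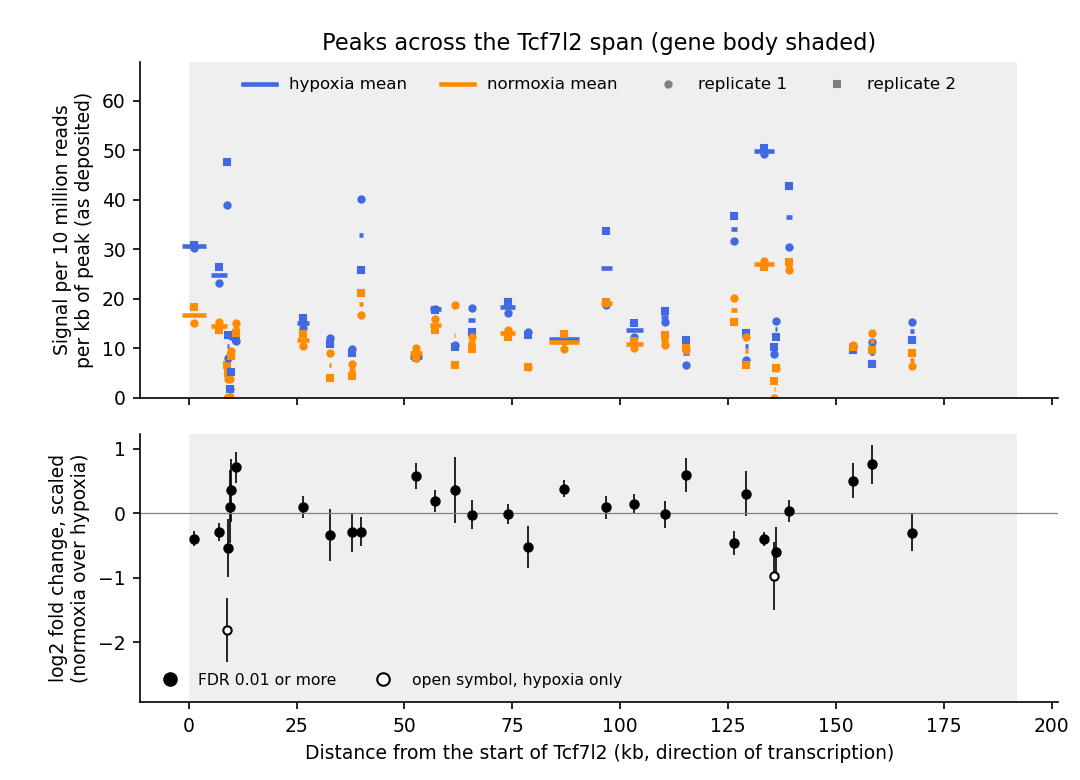
The 31 peaks across the Tcf7l2 span by distance from the start of the gene in kb, with the gene shaded. The upper panel gives the deposited value per kb of peak, with lines for the mean over the width of each peak and points for the libraries. The lower panel gives the log2 fold change with its SE, where 16 peaks lie below 0 and no peak is called.

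Axin2, the target gene, had 6 peaks. Its promoter peak (chr11:108919701-108922800) was the most open Wnt promoter per kb, with means of 37.3 in hypoxia and 19.3 in normoxia. Its values were 115 and 116 in hypoxia against 52.5 and 67.1 in normoxia. The groups did not overlap and the fold change was -0.48 (SE 0.14, FDR 0.0162), short of the threshold. It was called in 4 of 14 alternatives, edgeR on the recovered reads among them (FDR 0.00936), with FDRs from 1.99e-05 to 0.295. The other 5 peaks had fold changes between -0.20 and 0.52, so that the median over all 6 was 0.05.

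The 20 peaks of the secreted inhibitors had the lowest median of the roles, -0.33, and the called ones lay at the far end of Sfrp1. Of these 20 peaks 6 were assigned to hypoxia only, against 1 of the 12 ligand peaks. That assignment came from the same libraries and favours a low median, and a median without those peaks was not computed. Sfrp1, a soluble Frizzled-related protein, had 18 peaks with a median of -0.34, of which 14 lay below 0 and 2 were called lower. Its promoter peak (chr8:23407501-23414000) held 178 and 189 in hypoxia against 98.6 and 115 in normoxia. Those values did not overlap, and the fold change was -0.30 (SE 0.12, FDR 0.0760) after RLE scaling and 0.01 after cyclic loess.

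A broad peak over the end of the last exon of Sfrp1, with its 3′ UTR, and the sequence beyond the gene (chr8:23446801-23455700) fell. It held 207 and 226 in hypoxia against 95.6 and 107 in normoxia, with a fold change of -0.61 (SE 0.11, FDR 0.000517). Its groups did not overlap, and it was called in 9 of 14 alternatives, with FDRs from 7.55e-07 to 0.175. After cyclic loess the fold change was -0.29 (FDR 0.0761). Next to it, the hypoxia-only peak of 800 bp whose centre is printed above (chr8:23455701-23456500) held 9.91 and 18.0 in hypoxia against 2.25 and 3.00 in normoxia. These values rest on 28, 53, 6 and 9 reads. Its fold change was -1.60 (SE 0.35, FDR 0.00220), and it was the 1 Wnt peak called lower after cyclic loess as well (FDR 0.00124), being called in 11 of 14 alternatives with FDRs up to 0.201. The peak caller assigned this peak to hypoxia only from the same libraries, so its calls are not independent support for a fall. Of its bases 73.4% were marked as repeats, and the part of read mapping in its values was not tested.

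The called peaks belonged to a run of 5 abutting peaks over 20800 bp (chr8:23446801-23467600), grouped here after their values were seen. Their summed values were 400 and 436 in hypoxia against 201 and 221 in normoxia. This run made up 49.6% of the hypoxia signal at Sfrp1, and its log2 ratio was -0.51 after RLE scaling, against -0.21 for the other 13 Sfrp1 peaks, which summed in the same order to 415, 434, 239 and 290.

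**Figure D3:**
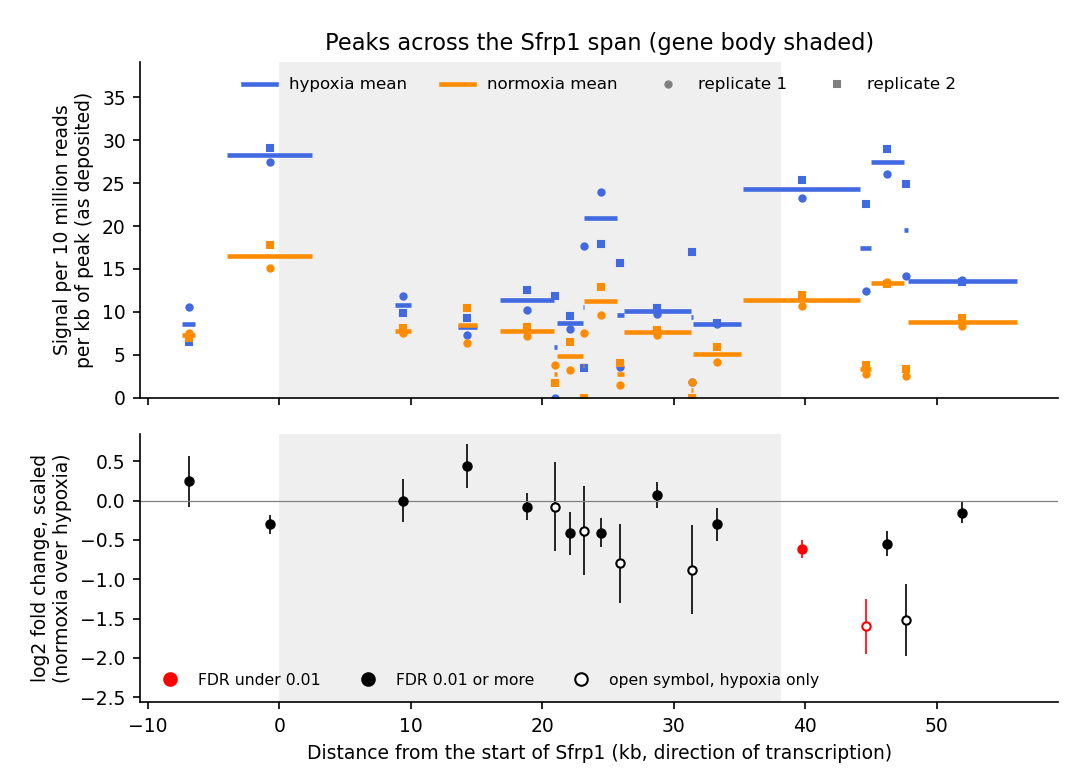
The 18 peaks across the Sfrp1 span by distance from the start of the gene in kb, with the gene shaded. The upper panel gives the deposited value per kb of peak, with lines for the mean over the width of each peak and points for the libraries, and the lower panel the log2 fold change with its SE. The 2 called peaks, in red, lie at and past the end of the gene, and open symbols mark 6 peaks assigned to hypoxia only.

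Dkk1 had 2 weak peaks. Its promoter peak (chr19:30549201-30549700) held 6.72 and 5.78 in hypoxia against 4.50 and 2.34 in normoxia, which rest on 7 to 19 reads, with a fold change of -0.36 (SE 0.39, FDR 0.578). The other peak, upstream of the gene, held in the same order 12.7, 11.2, 11.2 and 7.01, with a fold change of 0.05 (FDR 0.936). At this depth no difference was detectable at Dkk1.

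Hypoxia-only peaks were narrow pieces beside larger peaks. The peak caller assigned 10 of 90 Wnt peaks to hypoxia only (11.1%, against 6.84% of all peaks). None was assigned to normoxia only, against 0.0078% of all peaks. These assignments came from the same libraries. All 10 touched another peak and were at most 800 bp wide, with 6 at Sfrp1, 2 at Tcf7l2, 1 at Lef1 and 1 at Wnt5a. At least 50% of the bases were marked as repeats in 2 of these 10 peaks and in 0 of the other 80 Wnt peaks. Over the whole table this held for 14.2% of hypoxia-only peaks and for 2.25% of peaks assigned to both conditions.

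The roles were then set side by side in each library by the mean of log2(scaled value + 1) over their peaks. Ligands had 5.10 and 4.90 in hypoxia against 4.81 and 4.85 in normoxia, and secreted inhibitors had 3.90 and 4.05 in hypoxia against 3.61 and 3.58 in normoxia. The target Axin2 had 4.35 and 4.13 in hypoxia against 4.22 and 4.34 in normoxia. Both ligands and inhibitors were thus lower in each normoxia library, by means of 0.17 and 0.38, whereas the target overlapped between conditions. The inhibitor mean includes 6 hypoxia-only peaks of 20 and the ligand mean 1 of 12. These were assigned from the same libraries, which favours a fall, and role means without them were not computed.

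Ligands minus inhibitors came to 1.20 and 0.85 in hypoxia against 1.20 and 1.27 in normoxia. The mean difference of 0.21 was slightly above the pooled SD of 0.18, and hypoxia replicate 1 lay level with normoxia replicate 1. The difference rested mostly on hypoxia replicate 2 (0.38 without hypoxia replicate 1 and 0.036 without hypoxia replicate 2). These libraries therefore do not settle whether the contrast between ligands and inhibitors differed between conditions. Ligands minus the target came to 0.75 and 0.78 in hypoxia against 0.59 and 0.51 in normoxia, a mean difference of -0.21 with a pooled SD of 0.04. That difference was larger than the spread, but it was -0.01 after cyclic loess and -0.02 when the values were summed before taking logs. The target side rests on the 6 peaks of a single gene. After RLE scaling Lrp5 peaks were higher in both normoxia libraries (4.83 and 4.85) than in hypoxia (4.57 and 4.64), Ctnnb1 peaks likewise (4.24 and 3.83 against 3.79 and 3.65), and the nuclear factors overlapped. This direction depended on the scale. As deposited, the median log2 fold change was -0.17 at Lrp5, with 7 of 10 peaks below 0, and -0.04 at Ctnnb1, with 4 of 7 below 0. With 2 libraries against 2, the exact permutation test cannot give a two-sided p under 0.333, and none was computed for these means over peaks.

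**Figure D4:**
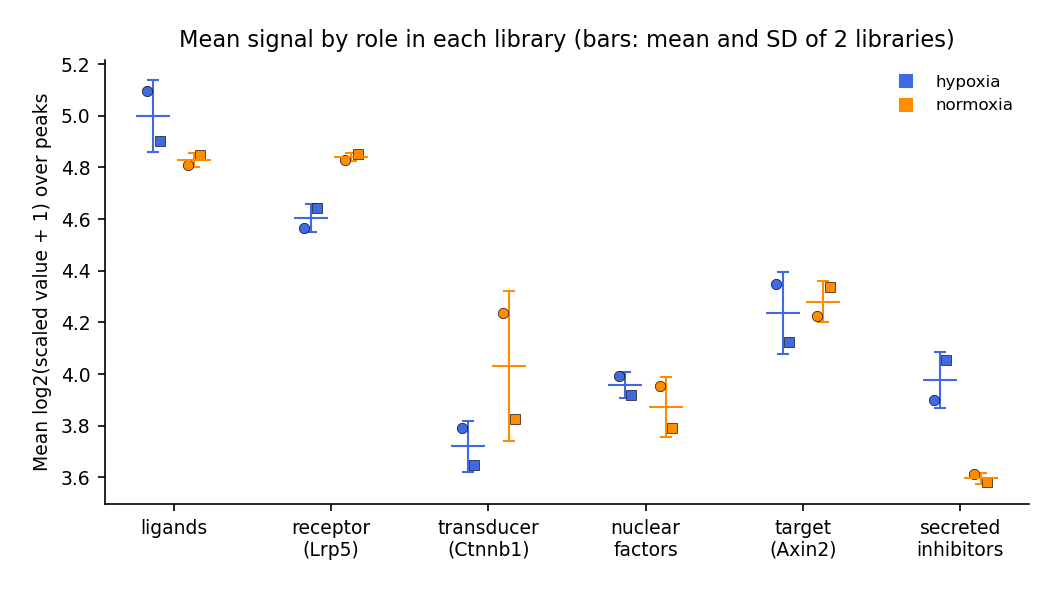
Mean log2(scaled value + 1) over the peaks of each role, with a point for each library and the mean and SD of 2 libraries. After RLE scaling the values of the secreted inhibitors and the ligands lie lower in normoxia, those of Lrp5 and Ctnnb1 lie higher, and those of the nuclear factors and Axin2 overlap. Of the inhibitor peaks 6 of 20, and of the ligand peaks 1 of 12, were assigned to hypoxia only from these libraries. The axis does not start at 0.

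Summed over the peaks of a gene, which weights the strong peaks, the log2 ratios after RLE scaling ran from -0.40 at Wnt10b and -0.35 at Sfrp1 to 0.08 at Ctnnb1. Wnt10b summed to 390 and 357 in hypoxia against 196 and 210 in normoxia as deposited, and Sfrp1 to 815 and 870 against 440 and 511. Between these ends lay Wnt1 (-0.22), Axin2 (-0.21), Wnt5a (-0.21), Dkk1 (-0.11), Tcf7l2 (-0.08), Lrp5 (-0.05) and Lef1 (-0.02). The scaled sums of Wnt1, Wnt5a, Wnt10b, Tcf7l2, Axin2 and Sfrp1 did not overlap between conditions and were lower in normoxia, each with the smallest exact permutation p of 0.333 (two-sided), whereas those of Lrp5, Ctnnb1, Lef1 and Dkk1 overlapped. The share of all genes whose sums were separated in this way is not given here, so it is open whether these genes differ from others. Among the ligands the ratio also depended on the scale. With equal totals it was 0.069 at Wnt1, 0.086 at Wnt5a and -0.11 at Wnt10b. After cyclic loess it was -0.028, 0.052 and -0.23 in the same order. The Wnt1 and Wnt10b sums share their 2 promoter peaks.

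After RLE scaling the strongest peaks had the lowest median fold change, at the Wnt genes as over the whole table. The 7 Wnt peaks whose values averaged 100 or more had a median log2 fold change of -0.39, and 2 of them were called lower, while all 9712 such peaks had a median of -0.34, with 32.5% called lower. The 30 Wnt peaks with a mean under 10 had a median of 0.01, against 0.09 for all peaks of that strength. Across peaks, which are not independent replicates and share their libraries, Spearman's rho between mean value and fold change was -0.075 for the 90 Wnt peaks and -0.165 for all peaks.

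**Figure D5:**
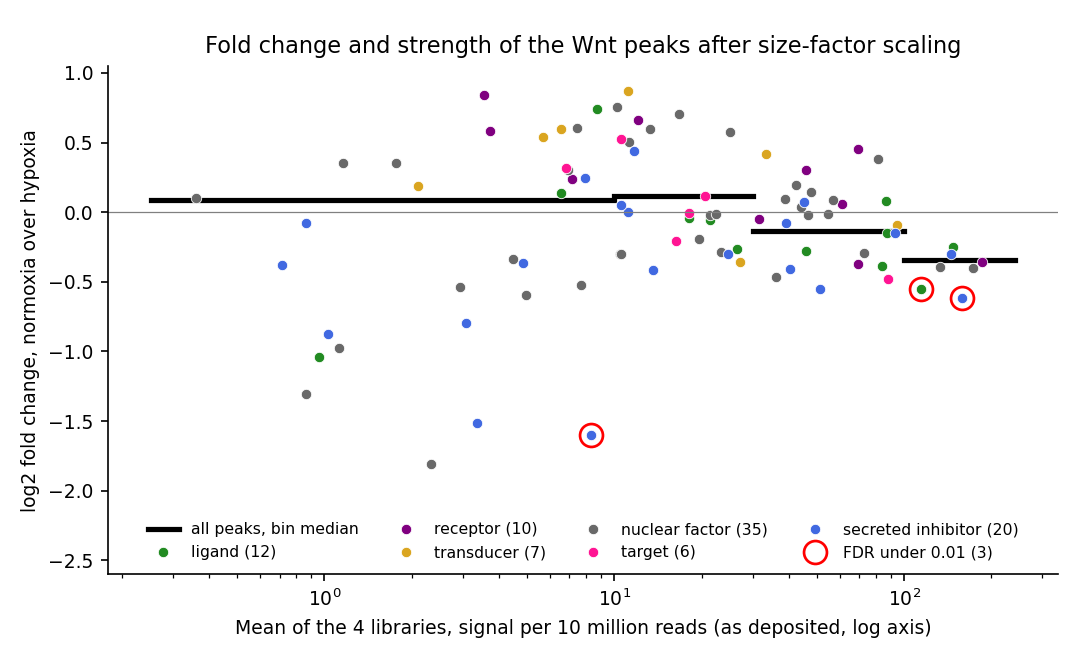
Log2 fold change after RLE scaling against the mean value of the 4 libraries (log axis) for the 90 Wnt peaks, coloured by role. Black lines give the median of all peaks in 4 bins of strength, and red circles mark the 3 called peaks. The strongest Wnt peaks lie near the median of -0.34 of all strong peaks.

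Beyond the 10 genes, a list of 79 further Wnt pathway genes was read at promoters. In 74 of them a promoter peak was found, and 17 of the 88 peaks, belonging to 15 genes, fell in normoxia (19.3%, against 16.7% of all promoter peaks), while 0 were called higher in limma. At an unadjusted p under 0.05, 4 of the 88 were higher and 37 lower, against 686 higher and 7791 lower of all 17661 promoter peaks. The median was -0.21, against -0.27 for all promoter peaks. By group, peaks fell in 3 of 19 for the other ligands, 2 of 8 for ligand secretion and R-spondins, 3 of 18 for receptors, 2 of 11 for secreted inhibitors, 1 of 6 for membrane inhibitors, 1 of 12 for cytoplasmic components, 2 of 7 for nuclear factors and 3 of 7 for target genes. No promoter peak of any group was called higher.

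The lowest p of the list was found at the start of Wls, which encodes the carrier that takes Wnt ligands to the cell surface (chr3:159839001-159840700). Its values were 177 and 198 in hypoxia against 63.0 and 83.4 in normoxia, a fold change of -0.88 (SE 0.13, FDR 2.89e-05) that was also called after cyclic loess (-0.60, FDR 0.000979). A hypoxia-only promoter peak of the ligand Wnt16 (chr6:22287601-22288200) held 23.7 and 31.6 in hypoxia against 5.25 and 5.34 in normoxia, with a fold change of -1.74 (SE 0.26, FDR 5.71e-05) and -1.93 after cyclic loess (FDR 7.31e-06). The peak caller made this assignment from the same libraries, so the low normoxia values at Wnt16 are not independent support for a fall. The promoters of Fzd4, a Wnt receptor, and Gsk3b, a kinase that marks beta-catenin for degradation, followed. At Fzd4 (chr7:89403301-89410000) the values were 317 and 323 in hypoxia against 136 and 171 in normoxia, with a fold change of -0.59 (SE 0.11, FDR 0.000410) and -0.20 after cyclic loess (FDR 0.178). At Gsk3b (chr16:38087101-38093700) they were 719 and 749 in hypoxia against 346 and 423 in normoxia, with a fold change of -0.46 (SE 0.087, FDR 0.000563), which was 0.06 after cyclic loess. In all 4 peaks the groups did not overlap as deposited, and 86.1% of all promoter peaks were likewise lower in both normoxia libraries. Without either hypoxia library none of the 88 promoter peaks was called.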

How the data were processed

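According to the methods of the study, the authors mapped reads to mm10 (Bowtie2), dropped duplicates (Picard), called 1 peak set over both conditions with chromstaR (bins of 300 bp, steps of 100 bp, mapping quality of at least 15) and deposited a signal per peak and library. The deposited signal, named RPKM by the authors, is not divided by peak width: 100% of values were whole multiples, within 0.01 read, of 10000000 over the library total, so whole reads were recovered. Whether these count fragments is not given in the sources used here.

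Values were scaled by RLE size factors and tested as log2(value + 1) with limma 3.58.1 in R 4.3.3 (lmFit, eBayes with trend and robust, two-sided, Benjamini-Hochberg over all 128055 peaks, FDR under 0.01). The alternatives included edgeR 4.0.16 on the recovered reads. Functions were tested on simulated data. Peaks were assigned with GENCODE M21, and promoter peaks lay within 1 kb of a protein-coding start. For each gene the text names its promoter peaks, its called peaks and the peak with the lowest p, and from the pathway list the 4 promoter peaks with the lowest p in each direction among those called, and other named peaks were chosen after their values were seen. A figure legend of the study calls the 2 replicates biologically independent, and the labels only number them. The genes and lists were chosen with earlier results of these data known. Intervals for counting error were not computed. One marker gene is not reported here.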

Additional observations from a re-analysis of the deposited data

How the results depend on the processing

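The counts of called Wnt peaks depended on the scaling and the threshold. The 3 peaks called lower and 0 higher became 24 lower on deposited values, 1 lower and 5 higher with equal totals, 1 lower and 2 higher after cyclic loess, 0 lower without trend and robust estimation in eBayes (29293 of all peaks at an unadjusted p under 0.05), 5 lower with edgeR and RLE factors, and 10 lower and 2 higher at an FDR under 0.05. With 50 kb on each side 2 were higher. With the replicate block 7 were lower, but the labels do not say whether same-numbered libraries came from the same cells (correlation of their deviations 0.011). Of all 128055 peaks, 7296 were lower and 3257 higher with edgeR and RLE factors. With the replicate block these were 8468 and 3912, and without trend and robust estimation 0 of all peaks were called. Leaving out 1 library gave Wnt medians from -0.125 to 0.043, and medians of all peaks from -0.019 to 0.0007. The median of -0.046 was -0.49 on deposited values and 0.23 with equal totals. The 17 pathway promoter peaks called lower and 0 higher became 53 lower on deposited values, 2 lower and 6 higher with equal totals, 3 lower and 3 higher after cyclic loess, 11 lower with a pseudocount of 0.1, 0 lower without trend and robust estimation, and 29 lower and 2 higher at an FDR under 0.05. There was 1 higher with a minimum mean value of 5, with edgeR under RLE or TMM factors, and with the replicate block, and 0 to 21 were lower when 1 library was left out. Ligands minus the target, -0.21, was -0.014 after cyclic loess, -0.36 with a pseudocount of 0.1, -0.13 with a pseudocount of 5, -0.13 with a minimum mean value of 5, -0.13 with spans of 2 kb, -0.14 with spans of 50 kb, -0.090 with other role groups and -0.019 from summed values. Ligands minus inhibitors, 0.21, moved by less than its pooled SD of 0.18 in all alternatives run for it, but it was 0.38 without hypoxia replicate 1 and 0.036 without hypoxia replicate 2, and from 0.11 to 0.25 otherwise. The causes were not tested.

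Of the named peaks, the following turned direction, none of them called as reported. With equal totals the Wnt1 (0.0073), Wnt5a (0.041), Lrp5 (0.23), Ctnnb1 (0.20) and both Lef1 promoter peaks (0.27 and 0.083) were above 0. After cyclic loess those of Wnt5a (0.067), Ctnnb1 (0.15), Lef1 (0.089) and Sfrp1 (0.0099) were, and with TMM factors that of Lef1 (0.0053). Leaving out 1 library, the promoter peaks ranged from -0.28 to 0.11 at Ctnnb1, from -0.18 to 0.13 at Lef1 and from -0.80 to 0.064 at Dkk1. A fit of edgeR on the deposited values was not run, since whole reads were recovered. Weak peaks rest on few reads, with 0 reads in some libraries.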
